A study of Homo sapiens with 2 samples.

Results

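The aminoacyl-tRNA synthetase genes were examined in CUT&Tag peak lists of NUDT21, a subunit of the factor that chooses where pre-mRNAs are cleaved and polyadenylated. In this assay a transposase is tethered by an antibody to the protein under study, and the genomic fragments it releases are sequenced. The group held 35 of the 20033 protein-coding genes of GENCODE release 44, chosen by gene name: 19 genes for cytosolic and 16 genes for mitochondrial enzymes. No gene was chosen for its peaks. Both samples came from J.gamma1 cells, a human leukemia line of the T-ALL type that is long established in culture, and were independent biological replicates with 1 NUDT21 antibody (Proteintech), no treatment being given in the labels. They formed 1 group without a control sample, so no contrast between conditions was possible. Each gene of the group is 1 gene and not a replicate, and therefore shares and medians are given beside those of all protein-coding genes without a p-value.

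Aminoacyl-tRNA synthetases join each amino acid to its tRNA, the step that sets the genetic code in protein synthesis. Cytosolic enzymes supply the ribosomes of the cytosol. Mitochondrial enzymes, encoded by separate nuclear genes in most cases, supply the ribosomes of mitochondria, whereas GARS1 and KARS1 encode both forms. Several cytosolic enzymes sit together in the multi-tRNA synthetase complex, and many cytosolic genes are known targets of ATF4, the transcription factor of the amino acid response.

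Replicate 1 held 92722 peaks on chromosomes 1 to 22, X and Y, and replicate 2 held 66671 peaks, with median folds of 3.95 and 4.23. Fold is the enrichment at the summit over the control level that the peak caller used. Because the lists differed in the number of peaks and read depth is unknown, each fold was also ranked within its own list, and its percentile is the share of peaks of that list with a lower fold. A promoter peak was a peak with an edge within 3000 bp of any annotated transcript start of the gene.

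Promoter stretches of 5 genes are shown first because they span the range of the readout. RARS1 (arginine) and YARS2 (mitochondrial tyrosine) had no promoter peak, FARSB (phenylalanine, beta subunit) had the lowest mean percentile, and QARS1 (glutamine) and MARS2 (mitochondrial methionine) were among the genes with high peaks at their own start. Each line gives the 250 bases before the RefSeq start on GRCh38.p14, 5′ to 3′ on the gene's strand. Capitals mark the motifs CCGGAAG (ETS), CACGTG (E-box), GCGCATGCG (NRF1) and TGATGNAA (the C/EBP-ATF response element core) on either strand.
RARS1 (chr5:168486221-168486470, plus strand): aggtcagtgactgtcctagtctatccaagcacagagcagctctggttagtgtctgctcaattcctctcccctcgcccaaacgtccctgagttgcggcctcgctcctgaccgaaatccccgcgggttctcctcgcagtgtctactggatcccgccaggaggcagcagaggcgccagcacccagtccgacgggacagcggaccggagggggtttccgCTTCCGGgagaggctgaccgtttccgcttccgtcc
YARS2 (chr12:32755898-32756147, minus strand): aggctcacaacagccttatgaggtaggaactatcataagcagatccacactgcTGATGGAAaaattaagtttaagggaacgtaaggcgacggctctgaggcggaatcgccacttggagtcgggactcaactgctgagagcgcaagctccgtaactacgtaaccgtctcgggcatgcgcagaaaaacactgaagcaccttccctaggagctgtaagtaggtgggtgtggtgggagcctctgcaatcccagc
FARSB (chr2:222656093-222656342, minus strand): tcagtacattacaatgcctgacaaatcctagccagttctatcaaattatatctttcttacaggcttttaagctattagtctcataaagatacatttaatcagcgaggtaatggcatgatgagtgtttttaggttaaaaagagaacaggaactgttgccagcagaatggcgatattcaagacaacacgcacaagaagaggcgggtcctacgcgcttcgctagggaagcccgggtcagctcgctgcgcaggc
QARS1 (chr3:49104758-49105007, minus strand): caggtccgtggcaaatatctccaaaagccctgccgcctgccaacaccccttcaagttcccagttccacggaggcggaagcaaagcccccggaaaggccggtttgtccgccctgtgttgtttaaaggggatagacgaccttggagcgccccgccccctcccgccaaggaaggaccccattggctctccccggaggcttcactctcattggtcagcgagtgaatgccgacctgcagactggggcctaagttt
MARS2 (chr2:197705119-197705368, plus strand): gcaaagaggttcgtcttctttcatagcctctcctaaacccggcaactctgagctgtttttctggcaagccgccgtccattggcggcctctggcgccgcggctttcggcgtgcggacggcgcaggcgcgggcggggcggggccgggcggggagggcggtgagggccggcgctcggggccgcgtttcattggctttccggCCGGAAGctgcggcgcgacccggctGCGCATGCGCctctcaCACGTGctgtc
The GC content of these stretches was 63.2% for RARS1, 52.8% for YARS2, 44.4% for FARSB, 60.8% for QARS1 and 70.4% for MARS2. FARSB with a low peak was the poorest in GC. RARS1 without a peak was richer than QARS1 in these 250 bases but not over 1 kb around the start, where RARS1 had 55.7% and QARS1 58.9%.

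Promoter peaks were found at most synthetase genes. In replicate 1, 33 of 35 genes (94.3%) had one, against 69.8% of all protein-coding genes. In replicate 2, 29 of 35 genes (82.9%) had one, against 57.9%. The mean share was 88.6% ± 8.08 (SD, n = 2). All 29 genes of replicate 2 also had a promoter peak in replicate 1, so 82.9% had one in both, against 57.0% of coding genes. The share of the synthetase genes was above the background in each replicate. The background fell from replicate 1 to replicate 2 as well, so the SD holds a shift that both had and does not measure the uncertainty of the excess.

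The count depended little on which start was used. Within 1000 bp of the Ensembl canonical start, the main start of a gene, 27 of 35 genes (77.1%) had a peak in both replicates, against 48.1% of coding genes. CARS1 (cysteine) and VARS1 (valine) were the genes lost, since in replicate 2 their peaks lay only at other starts. A peak covered the canonical start itself at 33 genes in replicate 1 and at 24 genes in replicate 2, and at 24 genes in both. The same count was not taken over all coding genes.

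**Figure D1:**
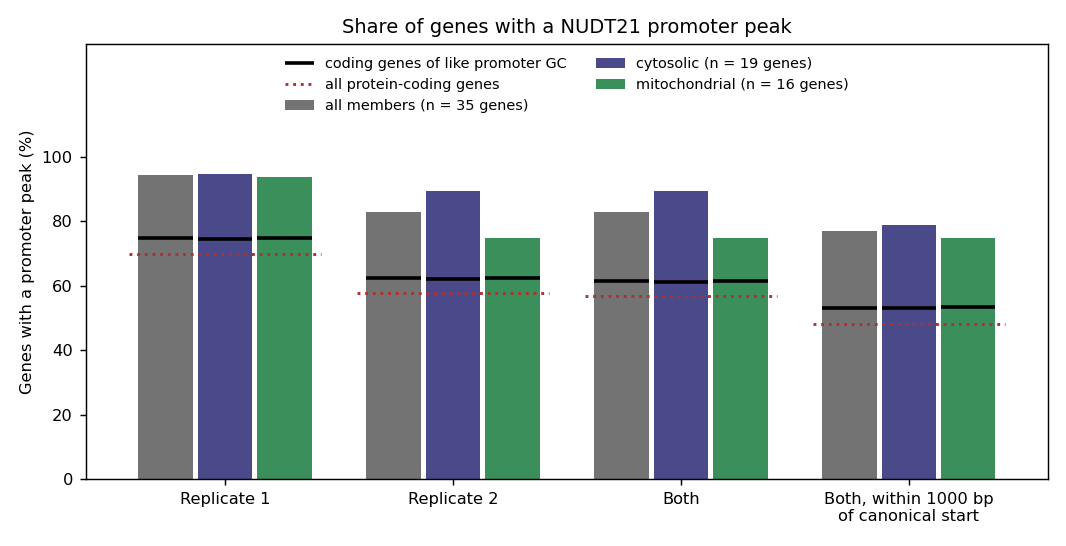
Share of genes with a NUDT21 promoter peak (%, bars) in each replicate, in both, and in both within 1000 bp of the canonical start, for all 35 synthetase genes, the 19 cytosolic and the 16 mitochondrial genes. Black lines mark the share expected from coding genes of like promoter GC content and dotted lines the share of all coding genes; every bar stands above both lines.

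Promoter GC content was examined next. Over 1 kb centred on the canonical start, the synthetase genes had a median GC content of 58.5%, from 48.7% at WARS1 (tryptophan) to 69.7% at VARS1, and all coding genes had 61.3%. When each gene was given the share of all coding genes in the same of 10 GC groups, 61.4% of the group would have had a promoter peak in both replicates. The observed share was 21.4 percentage points higher. With the 10000 peaks of highest −log10 p in each list, 10 genes had peaks in both and the excess was 3.56 points. In replicate 1 the excess was 19.6 points and in replicate 2 it was 20.5 points, with a mean of 20.02 ± 0.656 (SD, n = 2). Of the 12 synthetase genes with a GC content of 55.8 to 58.8%, all had promoter peaks in both replicates, against 64.0% of coding genes in that range. The neighbouring ranges differed from it: 3 of 6 genes at 58.8 to 61.3% had them, against 68.6%, and 3 of 5 genes at 51.8 to 55.8%, against 53.6%.

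Number of starts moved with this excess. The synthetase genes had a median of 13 annotated transcript starts and all coding genes had 5, and each start widens the window in which a peak counts. With coding genes of like GC content and like number of starts, 66.9% would be expected for both replicates, and the excess was 16.0 points. At the canonical start alone, which every gene has once, the excess at the same distance of 3000 bp was 19.8 points. With the distance also narrowed to 1000 bp, the expected share was 53.2% and the excess 23.9 points.

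Cytosolic and mitochondrial genes were then compared. In replicate 1, 18 of 19 cytosolic genes (94.7%) and 15 of 16 mitochondrial genes (93.8%) had a promoter peak, a difference of 0.987 points. In replicate 2 the counts were 17 of 19 (89.5%) and 12 of 16 (75%), a difference of 14.5 points. The mean difference was 7.73 ± 9.54 points (SD, n = 2), so it was smaller than the spread between replicates. For both replicates it also depended on the definition: it was 33.2 points when each peak was given only to the nearest start, and -4.93 points, with mitochondrial genes ahead, when each list was cut to its 10000 peaks of highest −log10 p. Within 1000 bp of the canonical start it was 3.95 points for both replicates, 15 of 19 genes (78.9%) against 12 of 16 (75%). Both lists were above genes of like GC content, the cytosolic genes by 28.1 points and the mitochondrial genes by 13.4 points for a promoter peak in both replicates. With the number of starts matched too, these values were 19.9 and 11.3 points. Within 1000 bp of the canonical start, against like GC content, they were 25.8 and 21.7 points.

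Among the 29 genes that had promoter peaks in each replicate, the folds were not high for promoters. The median percentile of the highest promoter peak was 83.1 in replicate 1 and 67.1 in replicate 2, while the 11425 coding genes with a peak in both had 88.1 and 78.4. Coding genes of like GC content had 85.4 and 76.2. In replicate 1, 11 of the 29 genes lay above the coding median, and in replicate 2, 10 did. Mitochondrial genes had medians of 86.7 and 74.1, and cytosolic genes had 79.7 and 67.1. Over both replicates the medians were 80.4 ± 6.32 for mitochondrial and 73.4 ± 8.47 for cytosolic genes (SD, n = 2). These SDs hold the fall from replicate 1 to replicate 2 that both lists had, and the mitochondrial median was higher in each replicate. Single genes were widely spread, in replicate 1 from 11.5 to 96.2 for mitochondrial and from 7.11 to 99.6 for cytosolic genes. The difference was not tested.

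**Figure D2:**
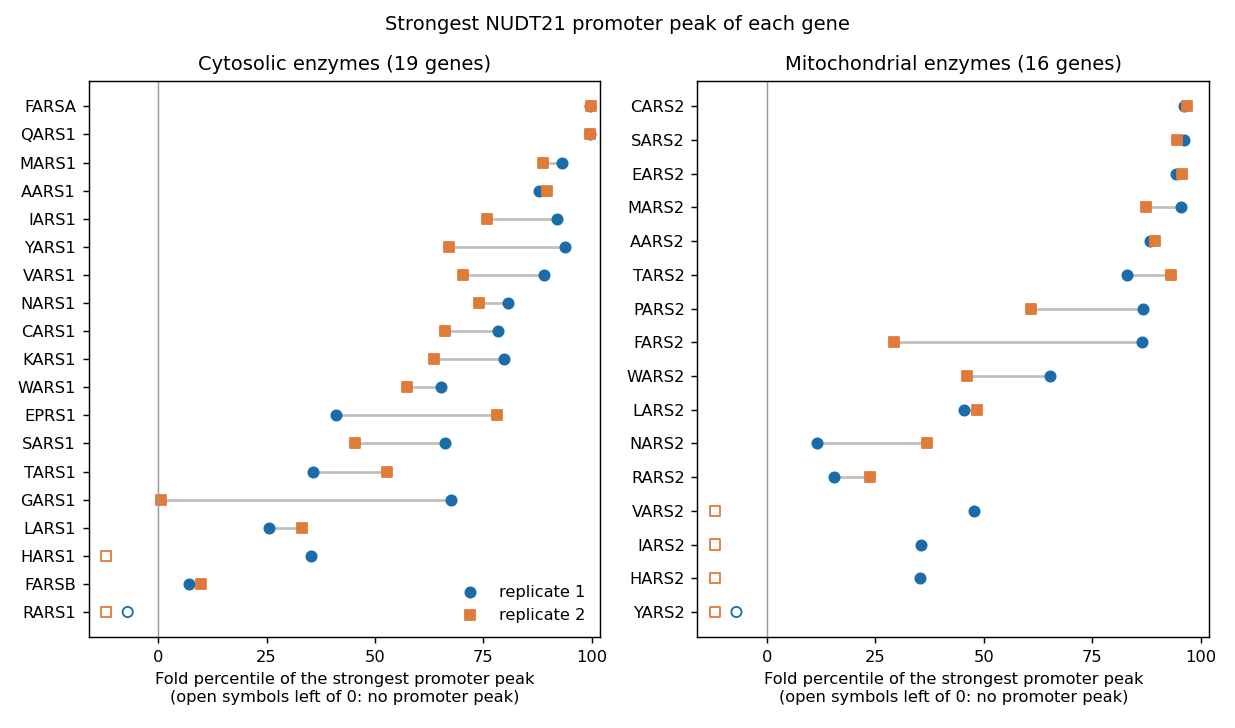
Fold percentile (0 to 100, within the list of each replicate) of the highest promoter peak of each synthetase gene, cytosolic genes on the left and mitochondrial genes on the right, with circles for replicate 1, squares for replicate 2 and grey lines joining them. FARSA and QARS1 stand above 99 in both replicates, GARS1 has 67.6 and 0.756, and open symbols left of 0 mark genes without a promoter peak.

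FARSA, which encodes the alpha subunit of the phenylalanine enzyme, had the highest cytosolic peak, with a fold of 17.0 in replicate 1 and 15.2 in replicate 2. This peak lay at chr19:12936355-12939588 in replicate 1, outside the gene, with 275 fragments over a control level of 14.0. Its summit was 4606 bp upstream of the canonical start of FARSA and nearest to the start of CALR, the gene of an endoplasmic reticulum chaperone. A separate peak over the start of FARSA, at chr19:12932704-12934224, had a fold of 8.96 in replicate 1 and 15.1 in replicate 2, so FARSA was high at its own start too.

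QARS1 followed with folds of 16.3 and 13.8. This peak, at chr3:49093042-49095543, was nearest to the start of the neighbouring gene QRICH1, and its summit lay 10338 bp from the canonical start of QARS1 in replicate 1. Over the start of QARS1 itself, at chr3:49103382-49105556, the folds were 7.91 and 6.97, with percentiles of 94.5 and 91.5. The base stretch of QARS1 printed above lies inside this peak.

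MARS1 (methionine) came next, with folds of 7.40 and 6.51, but the highest peak was a different one in each replicate. In replicate 1 its summit lay in an intron 9868 bp upstream, nearest to the start of a neighbouring gene. In replicate 2 it lay in an intron of the gene 10276 bp downstream. Both peaks were present in both replicates. The upstream one had a fold of 6.26 in replicate 2 and the downstream one 7.01 in replicate 1. The peak over the canonical start of MARS1 had folds of 5.54 and 3.96. The value of MARS1 at its start was therefore lower than its rank among the cytosolic genes.

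FARSB had the lowest cytosolic mean, with folds of 2.54 in replicate 1 and 2.97 in replicate 2 and percentiles of 7.11 and 9.93. Its peak covered the start at chr2:222655645-222656437, with 54 fragments over a control level of 19.0 in replicate 1 and 35 over 11.1 in replicate 2. The phenylalanine enzyme is built from both FARSA and FARSB subunits, and by mean percentile its 2 genes stood at opposite ends of the cytosolic genes with peaks in both replicates. In replicate 2 alone, GARS1 was lower than FARSB.

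LARS1 (leucine) had folds of 3.20 and 3.69, with both summits in its 5′ transcribed part, 124 and 34 bp from the start. GARS1 (glycine, for both compartments) had folds of 4.66 and 2.32. Its replicate 1 value came from an intronic peak 16727 bp into the gene with 17 fragments, and the peak over the canonical start had a fold of 3.89, percentile 48.2, in replicate 1 and 2.32, percentile 0.756, in replicate 2. With an SD of 33.5 percentile points at its start, GARS1 was not placed reliably. KARS1 (lysine, for both compartments) had folds of 5.40 and 3.83 over its start, at percentiles of 79.7 and 37.0.

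On the mitochondrial side, CARS2 (cysteine) had the highest mean percentile, with folds of 8.82 and 8.77. The peak lay at chr13:110712230-110716291 in replicate 1, 6865 bp upstream of the canonical start and nearest to ING1, a chromatin reader of the inhibitor of growth family. Over the canonical start of CARS2 the folds were 4.24 and 4.24, where 142 fragments stood over a control level of 30.1 in replicate 1 and 82 over 18.6 in replicate 2. CARS2 thus had many fragments at its own start but a middling fold.

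SARS2 (serine) had folds of 8.78 and 7.77 in a coding exon at its own start, chr19:38930385-38932003, with 161 and 89 fragments. EARS2 (glutamate) had folds of 7.78 and 8.18 over its start, chr16:23557084-23558351, with 134 and 71 fragments. These genes were high in both replicates and at their own starts, with means of 95.4 ± 1.14 and 94.9 ± 0.988 percentile points (SD, n = 2).

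RARS2 (arginine) had the lowest mitochondrial mean, with folds of 2.87 and 3.45. NARS2 (asparagine) had 2.72 and 3.83, and LARS2 (leucine) had 3.81 and 4.17. All 3 genes had control levels of 14.0 or more in replicate 1, and their fragment counts of 52 to 61 there were close to the coding median of 54.

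The position of the promoter peaks relative to the gene's own start and to other genes was counted next. The group had 120 distinct promoter peaks in replicate 1 and 86 in replicate 2, of which 27.5% and 34.9% were also within reach of another protein-coding gene. The highest peak lay more than 3000 bp from the canonical start at 8 of 33 genes in replicate 1 and at 9 of 29 genes in replicate 2. These shares and counts were not taken over all coding genes. In genes with a peak in both replicates, the median distance of the highest summit was 167 and 210 bp. In coding genes it was 391 and 732 bp. The compartments differed: mitochondrial genes had 114 and 113 bp, and cytosolic genes had 248 and 1777 bp. In replicate 2 the cytosolic median was thus farther from the start than that of coding genes. For each gene the peak with its summit nearest to the canonical start was also taken. Over 29 genes these summits lay a median of 124 bp from the start in replicate 1 and 136 bp in replicate 2, against 223 and 317 bp in coding genes. Their median percentile was 79.7 against 80.7 in coding genes in replicate 1, and 49.1 against 64.4 in replicate 2.

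**Figure D3:**
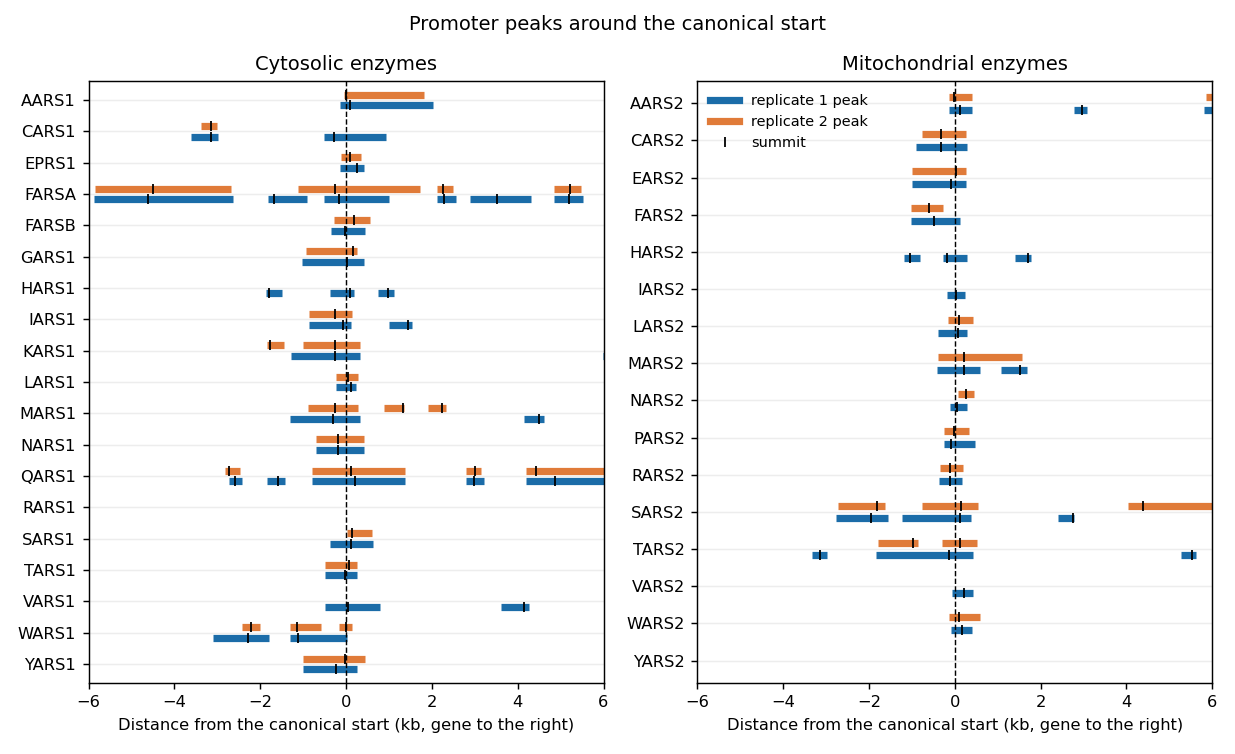
Promoter peaks within 6 kb of the canonical start of each synthetase gene (horizontal axis in kb, gene body to the right), with blue bars for replicate 1, orange bars for replicate 2 and ticks at summits. Most genes have a bar over 0 in both rows, HARS1, HARS2, IARS2, VARS1 and VARS2 have blue bars only (the replicate 2 peaks of VARS1 lie beyond 6 kb), and RARS1 and YARS2 have none.

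Agreement between replicates differed from gene to gene at the starts. The percentile of the peak nearest to the start was lower in replicate 2 for 17 of 29 genes, and at 11 genes it differed by more than 25 points. AARS1 (alanine) had 76.0 in replicate 1 and 20.1 in replicate 2, YARS1 (tyrosine) had 93.9 and 35.6, and SARS1 (serine) had 66.1 and 6.58. EPRS1 (glutamate and proline) was higher in replicate 2, with 41.1 and 78.2. FARS2, a mitochondrial gene, had 86.6 in replicate 1 and 29.4 in replicate 2. By contrast the cytosolic FARSA and QARS1 and the mitochondrial EARS2, SARS2, AARS2 (alanine) and MARS2 stayed above 87 in both replicates.

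RARS1 and YARS2 had no promoter peak in either replicate. The nearest peak to the canonical start of RARS1 was 92966 bp away in replicate 1 and 1097340 bp away in replicate 2, and for YARS2 it was 76184 bp away in both. RARS1 has 10 annotated starts and YARS2 has 3. Their GC contents over 1 kb were 55.7% and 54.6%, a range in which 53.6% of coding genes had promoter peaks in both. Without read totals, a weak signal below the peak caller's threshold cannot be told apart from none.

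IARS2 (isoleucine), VARS2 (valine), HARS1 and HARS2 (histidine) had a promoter peak in replicate 1 only, and 3 of these 4 genes are mitochondrial. IARS2 had a fold of 3.51 at its start with 37 fragments over a control level of 9. VARS2 had a fold of 3.89 with 14 fragments over 2.58. Replicate 2 was the list with fewer peaks, and the part of depth in these absences was not tested.

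HARS1 and HARS2 share 1 promoter: their canonical starts face away from each other 85 bp apart on chromosome 5. All 3 of their replicate 1 peaks were the same peaks, so the pair gives 1 observation and not 2. The peak over both starts, chr5:140691189-140691734, had a fold of 2.04, percentile 0.648, with 41 fragments over a control level of 18.0. The highest of the 3 peaks had a fold of 3.49 with 14 fragments and lay 966 bp inside HARS1. No other pair of synthetase genes shared a promoter peak. Without this pair, the excess over coding genes of like GC content for both replicates was 26.9 points.

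Other genes of the group stood head to head with genes outside the group. Counting HARS1 and HARS2, 8 of 35 genes (22.9%) had a protein-coding gene starting on the other strand within 1000 bp, against 10.02% of coding genes. KARS1 lay 108 bp from TERF2IP, a telomere protein gene, RARS2 lay 148 bp from ORC3, a subunit gene of the replication origin complex, and SARS2 lay 181 bp from MRPS12, a mitochondrial ribosomal protein gene. YARS1 with S100PBP, EARS2 with UBFD1 and FARS2 (phenylalanine) with LYRM4, an iron-sulfur cluster assembly gene, were 295, 377 and 563 bp apart. At RARS2 the summit nearest to the start was closer to the start of ORC3 in both replicates, and at KARS1 it was closer to that of TERF2IP. At YARS1 it was closer to that of S100PBP in replicate 1, and at FARS2 to that of LYRM4 in replicate 2. These peaks cannot be given to 1 gene. The peaks over the starts of SARS2 and EARS2 also had MRPS12 and UBFD1 within reach. Promoter peaks in both replicates were present at 6 of the 8 genes (75%) and at 23 of the 27 others (85.2%).

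Grouped by protein assembly, 6 of the 7 genes of the multi-tRNA synthetase complex had promoter peaks in both replicates, RARS1 being the exception. Of the 12 cytosolic genes outside the complex, 11 did, HARS1 being the exception. Class I enzymes, named for their catalytic fold, had peaks in both replicates at 15 of 19 genes (78.9%) and class II enzymes at 14 of 16 (87.5%). With the groups differing by 1 or 2 genes in these counts, no difference between them could be read.

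**Figure D4:**
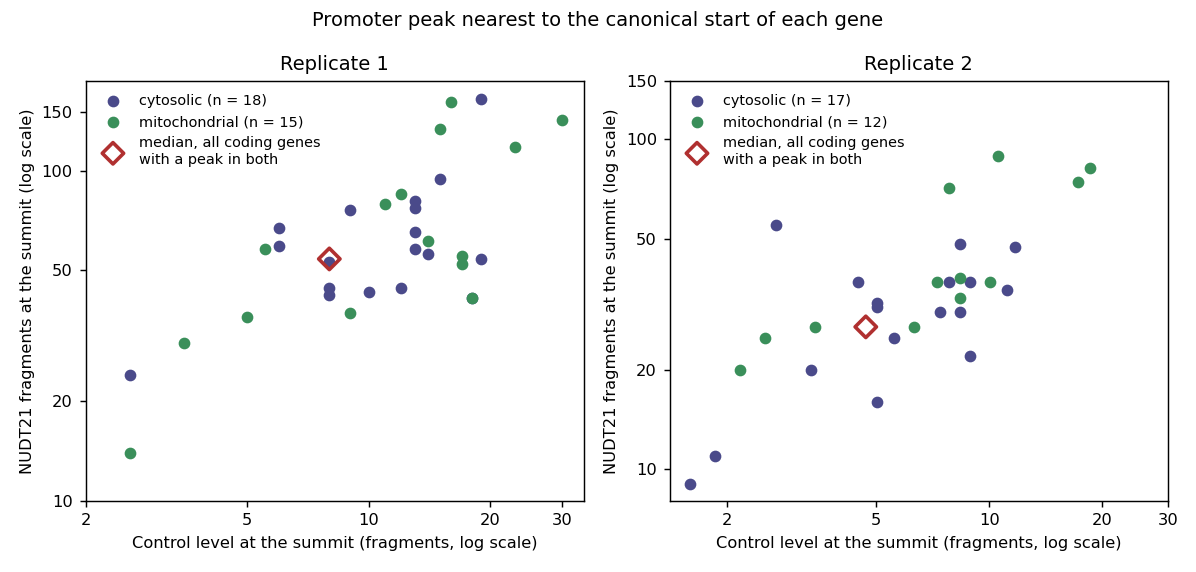
Fragments at the summit against the control level (both in fragments, log axes) for the promoter peak nearest to the canonical start of each synthetase gene, in replicate 1 on the left and replicate 2 on the right. The open diamond is the median of all coding genes with a peak in both replicates, at 54 over 8 and 27 over 4.69, and most points lie to its right.

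Fragment numbers and control levels were recovered from the deposited fold and p-value of each peak. At the peak nearest to the start, the 29 genes had a median of 59 fragments in replicate 1 and 33 in replicate 2, against 54 and 27 in coding genes. The control level was also higher, 13.0 against 8 in replicate 1 and 7.39 against 4.69 in replicate 2. It lay above the coding median at 22 of 29 genes in replicate 1 and at 21 of 29 in replicate 2. Coding genes of like GC content had control levels of 7.87 and 4.70. YARS1, with 165 fragments over 19.0, and WARS2 (tryptophan), with 118 over 23, showed this in replicate 1. The part of the control level in the middling folds of the group was not tested, and a control library is not described in the sources used here.

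VARS1 and VARS2 lie in the MHC region of chromosome 6, where hg38 carries alternate sequences, and they had the lowest control levels at their starts in replicate 1, 2.58 for both. VARS1 had a fold of 6.46 over its start with 24 fragments in replicate 1 and no peak within 1000 bp of the canonical start in replicate 2. Its promoter sequence recurred at 95% identity or more on 5 alternate sequences, and that of VARS2 on 5 and that of CARS1 on 1. How reads that match several copies were placed is not given in the sources used here, so the values of these 3 promoters are uncertain.

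Gene ends, where NUDT21 acts on RNA, were looked at apart from promoters. Peaks outside all promoters, with their summit at most 1000 bp from the 3′ end of the gene, were present in both replicates at 2 of 35 genes (5.71%), against 3.74% of coding genes. At CARS2 the summits lay 670 and 676 bp past the end, with folds of 3.55 and 3.64. At FARS2 they lay 545 and 794 bp past the end, with folds of 4.56 and 4.70. CARS1 and YARS1 had such peaks in replicate 1 only.

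Inside the gene bodies, away from promoters, 9 of 35 genes (25.7%) had peaks in both replicates, against 23.5% of coding genes. FARS2, a gene of 568 kb, had 11 such peaks in replicate 1 and 10 in replicate 2. TARS2 (threonine) had 5 and 4, and LARS2 had 6 and 3. The share of the group was near the background, unlike its share at promoters.

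Because many cytosolic genes belong to the amino acid response, their promoters were searched for the C/EBP-ATF response element core, TGATGNAA, the letters to which ATF4 binds together with C/EBP factors. RefSeq promoters of 300 bases, 250 before and 50 after the start, were matched for 30 of the 35 genes, the others being AARS2, LARS1, VARS1, VARS2 and YARS1. The core was found on either strand in 8 of 30 promoters (26.7%), against 2.69% of 22199 protein-coding promoters. It was in 7 of 16 cytosolic promoters and in 1 of 14 mitochondrial promoters, that of YARS2. These 8 sites are shown with the core in capitals in 30 bases, and the coordinates are those of the core on GRCh38.p14.
AARS1 (chr16:70289686-70289693, plus strand): tctaacttggcTGATGCAActgcgagaaaa
CARS1 (chr11:3057418-3057425, plus strand): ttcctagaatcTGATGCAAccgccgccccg
GARS1 (chr7:30594845-30594852, minus strand): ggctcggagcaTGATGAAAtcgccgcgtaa
IARS1 (chr9:92293703-92293710, plus strand): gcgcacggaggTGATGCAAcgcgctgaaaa
MARS1 (chr12:57488064-57488071, minus strand): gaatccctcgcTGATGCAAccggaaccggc
NARS1 (chr18:57621815-57621822, minus strand): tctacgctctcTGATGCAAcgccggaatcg
TARS1 (chr5:33440967-33440974, minus strand): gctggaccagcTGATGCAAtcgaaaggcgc
YARS2 (chr12:32756087-32756094, minus strand): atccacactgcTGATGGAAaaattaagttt
Of the 8 cores, 6 shared the letters TGATGCAA, and GARS1 and YARS2 differed from them. The cores of MARS1, CARS1 and TARS1 lay within 4 bases of the canonical start, and those of AARS1 and YARS2 lay 187 and 197 bases upstream.

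The cores were inside a NUDT21 peak at 6 of 8 sites in replicate 1 and at 5 of 8 in replicate 2. A peak covered the canonical start at 33 of all 35 synthetase genes in replicate 1 and at 24 in replicate 2. The shares at the cores were therefore not higher than at starts of the group. Cores in other coding promoters were not counted against peaks. At TARS1 (threonine) the core was 22 bp from the summit in replicate 1 and 70 bp in replicate 2, and at IARS1 (isoleucine) it was 73 and 238 bp away. At NARS1 (asparagine) it was 204 and 202 bp from the summit. The core of AARS1 lay just upstream of the peak edge, that of CARS1 was inside a peak in replicate 1 only, and YARS2 had no peak. All 7 cytosolic genes with the core had promoter peaks in both lists, as did 7 of 9 without it. The median percentiles nearest to the start were 76.0 and 52.9 with the core and 66.1 and 49.1 without it. They were higher with the core in each replicate, but rest on 7 genes with and 7 without it, and the difference was not tested.

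Other motifs were found in both compartments. CCGGAAG, the letters of the ETS family, was in 14 of 30 promoters (46.7%), 7 of 16 cytosolic and 7 of 14 mitochondrial, against 12.8% of coding promoters. RARS1, which had no peak, was among them. So were HARS1 and HARS2, whose shared promoter was thus counted in each compartment. CACGTG was in 3 promoters (10%) against 8.34%, and GCGCATGCG in 1 (3.33%), that of MARS2, against 2.36%. TGTA, the DNA form of the letters that NUDT21 binds in RNA, was in 13 promoters (43.3%) against 52.3%. A match is a description of letters, and binding of the named factors was not measured here.

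Further genes of tRNA charging were described in the same way. Of these 20 genes, 14 (70%) had promoter peaks in both lists, against 57.0% of coding genes. Among the scaffold genes of the multi-tRNA synthetase complex, AIMP2 had folds of 3.65 and 3.70, EEF1E1 had a peak of fold 3.95 in replicate 1 only, and AIMP1 had none. Of the genes that finish charged mitochondrial tRNA, GATC had folds of 8.94 and 8.80 and MTFMT, which formylates the initiator methionine, had 6.65 and 5.99, while GATB had a peak in replicate 1 only. QRSL1, of the same list, had 3.90 and 3.15. PSTK, which phosphorylates serine on the selenocysteine tRNA, had folds of 13.3 and 8.07. SEPSECS, the other selenocysteine gene, had a fold of 2.97 in replicate 1 and no promoter peak in replicate 2. Of the genes that proofread charged tRNA, AARSD1 had folds of 6.20 and 4.79, DTD2 had 3.12 and 3.99, and DTD1 had no peak.

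Genes of the response to uncharged tRNA had promoter peaks in both replicates in 7 of 8 cases (87.5%), against 57.0% of coding genes. All 8 genes had a GC content of 61.0 to 66.5% over 1 kb. In the GC groups of that range, 68.6 to 69.6% of coding genes had promoter peaks in both replicates. EIF2AK4, the kinase GCN2 that senses uncharged tRNA, had folds of 10.2 and 5.13. At the start of ATF4 the folds were 8.30 and 9.61, and its highest replicate 1 peak, with a fold of 8.58, lay 8600 bp away and nearest to RPS19BP1. SESN2, an ATF4 target, had folds of 10.3 and 8.43 at its start. DDIT3, also a target, had folds of 12.5 and 4.25 at its start, but the replicate 1 summit was nearest to the start of the neighbouring gene MBD6, as was a replicate 2 peak with a fold of 5.50 outside the gene. ASNS, the asparagine synthetase gene and an ATF4 target, had no promoter peak. The median percentile of these genes was 95.9 in replicate 1 and 80.04 in replicate 2, and the coding genes had 88.1 and 78.4, so the replicate 2 value was near the background.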

How the data were processed

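CUT&Tag with a NUDT21 antibody was done in 2 replicates of J.gamma1 cells. Per the labels and methods, the authors trimmed reads with fastp, aligned them to hg38 with Bowtie2 2.2.5, removed duplicates with Picard and called peaks in each replicate with MACS3 3.0.1. The caller's settings and a control library are not given in the sources used here. For each peak the deposited lists give the fold enrichment at the summit (a ratio), −log10 p-value and −log10 q-value, and a score, which was not used. Read totals are unknown.

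Peaks on chromosomes 1 to 22, X and Y were joined to GENCODE release 44 starts (3000 bp, nearest edge). Fold percentiles were taken within each list. MACS takes fold as (pileup + 1)/(control + 1) and p from the Poisson distribution, and fragments and control level were solved from both; the pileup of replicate 1 had been scaled by 0.921. Expected shares were means, over the members, of the share of all coding genes in the same of 10 GC groups (1 kb window). Promoter sequences are RefSeq, GRCh38.p14. Python 3.11.15, pandas 2.3.3, scipy 1.17.1 and minimap2 2.31 (alternate sequences) were used, and the steps were tested on simulated data. Alternatives were other promoter distances, starts, thresholds, GC windows and each replicate alone.

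Members and lists were chosen with earlier results of these data known. Genes named with values were the 3 highest and 3 lowest by mean percentile in each compartment, genes without a peak in 1 or both replicates, genes sharing a promoter, KARS1 and GARS1, and genes with 3′ end peaks in both; other genes named were picked after their values were seen. Shares carry no interval, since genes are not independent samples.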

Additional observations from a re-analysis of the deposited data

Results flagged for a closer look

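Peaks on the alternate sequences of hg38 were outside the comparisons, which used chromosomes 1 to 22, X and Y, and were looked for where a synthetase promoter recurred. The promoter of CARS1 recurred on 1 alternate sequence of chromosome 11, which had a peak in replicate 1 with a fold of 6.83 and none in replicate 2. VARS1 recurred on 5 alternate sequences of the MHC region, of which 4 had a peak in replicate 1, with folds of 4.92 to 5.95, and 1 had a peak in replicate 2, with a fold of 3.48. VARS2 recurred on 5, of which 2 had a peak in replicate 1, with folds of 3.08 and 3.52, and 0 in replicate 2. At VARS1 the replicate 2 peak on an alternate sequence stood where the main chromosome had no peak within 1000 bp of the canonical start. There were no control samples for these values, and how the authors treated reads that match several sequences was not tested.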

How the results depend on the processing

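The count of 29 genes with promoter peaks in both replicates was 26 to 29 under other distances, starts, summits and a −log10 q of at least 5, and fell to 10 when each list was cut to its 10000 peaks of highest −log10 p. That last setting turned the difference of cytosolic from mitochondrial shares to -4.93 points, cut the excess over like GC content to 3.56 points, and put the median percentiles at 91.4 (cytosolic) and 94.99 (mitochondrial). It keeps fewer peaks. The compartment difference was 3.95 points at the canonical start alone, also within 1000 bp, 33.2 points with peaks given to the nearest start only, and 0.987 to 14.5 points with either replicate left out. The excess over like GC content was 24.9 points within 1000 bp, 19.8 at the canonical start alone, 23.9 at the canonical start within 1000 bp, 24.7 with starts of coding transcripts, 22.3 with summits, 27.2 at the stricter q, 24.3 with nearest starts, 19.8 with GC content over 300 bases, 16.0 with the number of starts, 26.9 without HARS1 and HARS2, and 19.6 to 20.5 with either replicate left out. Median percentiles were 64.4 (cytosolic) and 70.3 (mitochondrial) at the canonical start alone, 58.6 and 70.3 for the peak nearest to it, 87.1 (mitochondrial) with nearest starts and 90.2 (mitochondrial) by −log10 p. The median distance from the canonical start, 188 bp, was 130 bp for the nearest peak and 187 to 210 bp with either replicate left out. The response element core was in 4 promoters when the 250 bases before the start alone were searched. Settings at the canonical start within 1000 bp, without HARS1 and HARS2 and with 250 bases were chosen after seeing the data. Causes were not tested. No paired analysis of conditions was possible because the study has 1 group and no contrast between conditions. Read depth is unknown, which limits what the genes without a peak can show.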
